A study of Mus musculus with 11 samples.

Results

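A set of 8 chaperone genes of the testis is described here across mice with and without Rfx2: Hspa2, Hspa1l, Hspa4l, Hsp90aa1, Hspa5, Clgn, Calr3 and Pdilt. They were taken from the count table as the rows whose Ensembl identifier carries one of these symbols in GENCODE M21, which gave 8 of 23074 genes, and all 8 passed the filter on low counts. RNA-Seq was made from decapsulated testes of mice aged 21 days (P21) on a background of C57BL/6, 129/Sv and FVB/N. One group was wild type (replicates 1 to 5) and the other was Rfx2-/- (replicates 6 to 11), 1 library per mouse. The Rfx2-/- allele lacks exon 7, which was flanked by loxP sites and removed with a Cre active throughout the body, so the deletion is not limited to germ cells. The comparison asks whether loss of RFX2, a transcription factor of meiotic and postmeiotic male germ cells, alters the level of these mRNAs.

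Chaperones help proteins to fold and to assemble. In the cytosol, HSP70 proteins bind unfolded stretches in an ATP-driven cycle, HSP110 proteins exchange their nucleotide, and HSP90 takes over clients that are close to their final fold. In the endoplasmic reticulum (ER), the HSP70 protein BiP, the lectin chaperones calnexin and calreticulin and the protein disulfide isomerases do the corresponding work for membrane and secreted proteins. The testis has its own forms of several of these proteins. Spermatocytes make HSPA2, which works with the synaptonemal complex and CDK1 at the end of meiotic prophase. Calmegin (CLGN) is a germ cell relative of calnexin, CALR3 (calsperin) one of calreticulin and PDILT one of the disulfide isomerases, and these 3 ER proteins are known for the maturation of ADAM proteins of the sperm surface.

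Library totals ran from 26925157 to 29769483 counts in wild type and from 22232097 to 27116903 counts in Rfx2-/- testis (two-sided exact permutation p = 0.0130). Values are CPM, counts scaled to library size with edgeR's TMM factors, and a count of 3 corresponds to between 0.0852 and 0.139 CPM, a limit that covers counting error only. Rfx2 itself, which the gene count covers over all exons and not over exon 7 alone, averaged 326 ± 118 CPM (SD, n = 5) over wild type mice and 304 ± 14.6 CPM (SD, n = 6) over Rfx2-/- mice. Its log2 fold change was -0.10 (adjusted p = 0.714 from edgeR) and, with a pachytene marker score as a covariate, -0.60 (7.1e-05), and neither shows whether exon 7 is covered. The mice differed in germ cell markers within each genotype. The summed CPM of 8 round spermatid markers ran from 8.55 to 390 in wild type and from 29.5 to 597 in Rfx2-/- testis, with wild type replicate 1 and Rfx2-/- replicate 7 on top. The sum of 7 pachytene spermatocyte markers ran from 2394 to 5363 in wild type and from 4891 to 6209 in Rfx2-/- testis, with wild type replicates 3 and 5 lowest. All 7 had a log2 fold change above 0. In edgeR 4 were higher at an unadjusted p under 0.05, against 18.1% of tested genes. Of 8 Sertoli cell markers, 8 had a log2 fold change below 0 and 6 an unadjusted p under 0.05 from edgeR. Of 8 spermatogonia markers, 7 lay below 0, and 4 were lower at that limit. Over the 15745 tested genes, 8621 lay below 0, and 23.7% were lower at that limit. The Sertoli marker sum ran from 2309 to 3485 CPM in wild type and from 2252 to 2666 in Rfx2-/- testis. Of 6 Leydig cell markers, 1 (Hsd3b1) was called lower at an adjusted p of at most 0.01, as were 1.94% of all tested genes. The 5 macrophage and 4 endothelial markers all had values below 0. Of 4 peritubular myoid markers, 3 lay below 0, and 0 had an unadjusted p under 0.05 from edgeR. The part of these shifts in the results for the chaperones was not tested. None of the markers in these lists was at or under a count of 3 in every mouse. In whole testis, fewer cells of a type and less RNA per cell cannot be told apart.

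No chaperone of the 8 passed the test between genotypes. At an adjusted p of at most 0.01, the quasi-likelihood test of edgeR, adjusted by Benjamini-Hochberg, called 0 of 8, where 2.67% of the 15745 tested genes were called in either direction. At an unadjusted p under 0.05 there were 3 members, Clgn, Hspa2 and Hspa4l, all higher in Rfx2-/- testis, against 41.8% of tested genes in either direction, 18.1% higher and 23.7% lower. DESeq2's Wald test, which gave no p for Hspa1l, called 0 of the other 7 at 0.01, where it called 13.4% of genes, and limma voom called 0, where it called 6.66%. At a limit of 0.05, DESeq2 gave adjusted p = 0.0270 for Clgn, 0.0391 for Hspa2 and 0.0444 for Hspa4l, a limit that 31.2% of genes passed in that test. The genotypes overlapped for all 8 members, while 11.7% of tested genes had no overlap (6.5% higher and 5.2% lower). The median log2 fold change was 0.28 over the members and -0.05 over all tested genes, with 7 members above 0 and 1 below. A p above the limit does not show that the level was the same in both genotypes.

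The members are described in 3 groups by how they varied from mouse to mouse. Hspa2, Hspa4l, Clgn and Hsp90aa1 were abundant and moved together. Hspa5 was abundant and nearly level. Hspa1l, Calr3 and Pdilt were highest in wild type replicate 1 and Rfx2-/- replicate 7. Hspa1l and Calr3 were low in the other mice, while Pdilt was graded over them, with 50.1 CPM in Rfx2-/- replicate 6. The Pearson r of Pdilt over the 11 mice was 0.81 with Hspa2, 0.77 with Hspa1l and 0.43 with Calr3, so the grouping is loose for Pdilt. On the per-length scale (RPKM, CPM per 1000 bases of merged exons), the mean over all mice was 645 for Hspa2, 413 for Hspa5, 282 for Clgn, 119 for Hsp90aa1, 90.9 for Hspa4l, 11.8 for Pdilt, 3.75 for Hspa1l and 2.46 for Calr3. The mean RPKM of Hspa2 stood at percentile 99.0 of the tested genes and that of Calr3 at percentile 30.2.

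**Figure D1:**
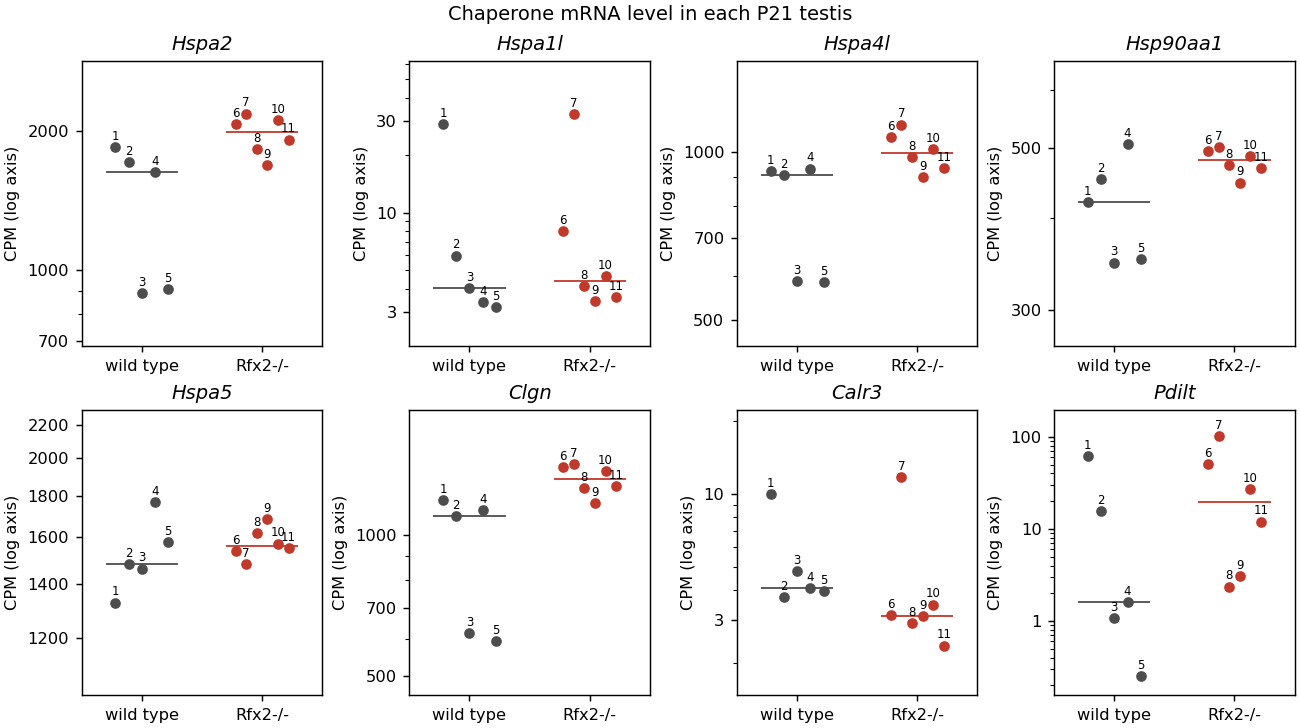
Level of each chaperone mRNA in CPM on a log axis, 1 point per P21 testis with its replicate number, wild type in grey and Rfx2-/- in red; the horizontal line is the median of the genotype. Wild type replicates 3 and 5 sit lowest for Hspa2, Hspa4l, Hsp90aa1 and Clgn, and wild type replicate 1 and Rfx2-/- replicate 7 stand above the rest for Hspa1l and Calr3.

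Hspa2 (ENSMUSG00000059970, chromosome 12 from 76404176 to 76406938 of GRCm38, plus strand) encodes the HSP70 of spermatocytes. Wild type replicates 1 to 5 held 1845, 1711, 889, 1623 and 907 CPM, and in the 6 Rfx2-/- testes the lowest was 1684, the median 1988 and the highest 2175 CPM. Wild type replicates 3 and 5 lay far below every other mouse, the Rfx2-/- mice lay close together, and 4 of the 6 were above every wild type mouse. The coefficient of variation was 33.0% in wild type and 9.59% in Rfx2-/- testis. Mean levels were 1395 ± 461 CPM (SD, n = 5) and 1961 ± 188 CPM (SD, n = 6), and the log2 fold change was 0.49 (standard error 0.21, adjusted p = 0.0996 from edgeR).

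Hspa4l (ENSMUSG00000025757, chromosome 3 from 40744495 to 40796103, plus strand) encodes an HSP110 protein, a nucleotide exchange factor for HSP70. Wild type replicates 1 to 5 had 924, 910, 586, 933 and 584 CPM, and the Rfx2-/- testes had a lowest value of 902, a median of 996 and a highest of 1120 CPM. Replicates 3 and 5 were again the 2 lowest mice, and 5 of the 6 Rfx2-/- mice were above every wild type mouse. The log2 fold change was 0.35 (standard error 0.15, adjusted p = 0.105 from edgeR).

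Clgn (ENSMUSG00000002190, chromosome 8 from 83389867 to 83428552, plus strand), the germ cell relative of calnexin, was measured at 1186, 1096, 617, 1127 and 593 CPM in replicates 1 to 5 of the wild type. The Rfx2-/- testes had a lowest value of 1166, a median of 1315 and a highest of 1414 CPM. Here too replicates 3 and 5 were lowest, and 5 of 6 Rfx2-/- mice were above every wild type mouse, with replicate 9 under wild type replicate 1. Clgn had the lowest adjusted p of the members, 0.0824 from edgeR, with a log2 fold change of 0.50 (standard error 0.19).

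Hsp90aa1 (ENSMUSG00000021270, chromosome 12 from 110690605 to 110702728, minus strand), the HSP90 form that spermatocytes need to complete meiotic prophase, was measured at 421, 452, 348, 505 and 352 CPM in replicates 1 to 5 of the wild type. In Rfx2-/- testes it had a lowest value of 448, a median of 480.1 and a highest of 500.5 CPM. The lowest mice were the same pair, but the highest of all 11 was wild type replicate 4, and none of the Rfx2-/- mice was above every wild type mouse. The log2 fold change was 0.20 (standard error 0.10, adjusted p = 0.144 from edgeR).

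Across the 11 mice the log2 CPM of these 4 genes moved together, with pairwise Pearson r from 0.916 (Hspa2 and Hsp90aa1) to 0.995 (Hspa2 and Clgn). All points share the library of the mouse, and r is given as a description. The pattern was not particular to these 4 genes. Wild type replicates 3 and 5 were also lowest for Tcp1 (730 and 701 CPM) and Dnajb1 (162 and 163 CPM), named here after their values were seen. The RPKM of Clgn relative to that of Hspa2 lay between 0.421 and 0.456 in wild type and between 0.424 and 0.455 in Rfx2-/- testis, although Hspa2 itself spanned 2.45-fold over all mice. Hspa4l relative to Hspa2 was 0.133 to 0.175 in wild type and 0.127 to 0.143 in Rfx2-/- testis. The pachytene marker sum was also lowest in wild type replicates 3 and 5, and 3 of 6 Rfx2-/- mice were above every wild type mouse. With a score of the pachytene markers as a covariate in edgeR, the log2 fold change was 0.01 for Hspa2, 0.04 for Clgn, -0.01 for Hspa4l and -0.01 for Hsp90aa1 (adjusted p from 0.758 to 0.978). All 7 pachytene markers themselves had a fitted value above 0, so this fit cannot separate cell makeup from genotype. The part of cell makeup in the differences was not tested.

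Hspa5 (ENSMUSG00000026864, chromosome 2 from 34771970 to 34777547, plus strand) encodes BiP, the HSP70 of the ER. Wild type replicates 1 to 5 had 1327, 1481, 1462, 1765 and 1576 CPM, and the Rfx2-/- testes had a lowest value of 1480, a median of 1561 and a highest of 1684 CPM. All 6 Rfx2-/- mice lay inside the wild type range, and wild type replicates 3 and 5 did not stand apart. The highest mouse had 1.33 times the level of the lowest, and the SD of log2 CPM over the 11 mice stood at percentile 8.89 of the tested genes. The log2 fold change was 0.05 (standard error 0.09, adjusted p = 0.698 from edgeR) and -0.12 when total counts replaced TMM, a scaling that moved the median of all tested genes from -0.05 to -0.22.

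The nearest ER relatives of the members were compared in the same way. The log2 fold change was 0.12 for Hsp90b1 (adjusted p = 0.308), 0.14 for Canx (0.157) and 0.09 for Calr (0.427) in the same edgeR test. Other ER folding genes had larger values, among them Hyou1 at 0.28 (0.0576), Uggt1 at -0.33 (0.0755), Pdia4 at -0.32 (0.0824) and Sil1 at 0.56 (0.0612), named here after their values were seen. Hspa5 relative to Hsp90b1, as a ratio of RPKM, was 0.767 to 0.888 in wild type and 0.752 to 0.858 in Rfx2-/- testis.

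These housekeeping ER genes are classical targets of the unfolded protein response, which acts through the ER stress element, spelled here as CCAAT and CCACG with 9 bases of any kind between them, and the stretches that hold it are shown because Hspa5 was the one member with a match. RefSeq promoters (GRCm38.p6, 250 bases before to 50 after each start) were available for 6 of the 8 members, in 7 windows, and not for Clgn and Hsp90aa1. On both strands the motif was in 0.119% of 32851 promoters, in 1 of the 7 member windows, and in those of Canx, Calr and Hsp90b1, with 2 sites in Hsp90b1. The motif is in capitals and each stretch is written in the direction of the motif, 5′ to 3′.
Hspa5 (chr2:34772020-34772048, plus strand): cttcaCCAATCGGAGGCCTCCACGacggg
Canx (chr11:50325795-50325823, minus strand): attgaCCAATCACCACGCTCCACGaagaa
Calr (chr8:84847070-84847098, plus strand): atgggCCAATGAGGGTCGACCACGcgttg
Hsp90b1, first site (chr10:86705633-86705661, minus strand): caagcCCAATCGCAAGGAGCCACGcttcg
Hsp90b1, second site (chr10:86705528-86705556, plus strand): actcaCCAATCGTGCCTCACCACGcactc
Calr3, the testis relative of Calr, had no match to this motif in its 2 windows. The Hspa5 motif lies at -65 to -47 from the RefSeq start and inside the M21 gene, whose annotated start is further upstream. A match is a description of the letters and not a site shown to be used.

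RFX proteins bind the X-box, searched for as GTTGCC and GGCAAC with 2 bases between them. It was in 31 of 32851 promoters (0.0944%) and in none of the 7 member windows. An exact match this rare is absent from nearly any 7 windows, so its absence says nothing on RFX binding to the members. Inexact matches to the full motif were not searched for. A single arm, GTTGCC, on either strand, was in 12.5% of all promoters and in 3 of the 7 member windows, both of Calr3 and that of Hspa1l. The Calr3 stretches are shown, with the arm in capitals, since Calr3 was the one member with a fitted value below 0. That value was not called (adjusted p = 0.676 from edgeR), and it was 0.11 without wild type replicate 1.
Calr3, first start (chr8:72443915-72443930, minus strand): gtgcgGTTGCCtcagg
Calr3, second start (chr8:72435195-72435210, minus strand): ggcaaGTTGCCcaggc
The first lies upstream of the M21 gene and the second inside it. Here too a match describes the letters and is not a site shown to be used. The cAMP response element TGACGTCA, in 1.79% of promoters, and the heat shock arms GAANNTTC (7.86%), also with a further GAA after 2 more bases (0.603%), were in none of the member windows. Of the paralogs, Hspa1a, Hspa1b and Hsph1 held GAANNTTC, and Hsph1 also the longer form.

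Pdilt (ENSMUSG00000030968, chromosome 7 from 119486587 to 119523489, minus strand), the germ cell disulfide isomerase relative, varied most. Wild type replicates 1 to 5 had 62.0, 15.5, 1.08, 1.61 and 0.251 CPM, and Rfx2-/- replicates 6 to 11 had 50.1, 102, 2.36, 3.07, 27.2 and 12.02 CPM. The highest and the lowest mouse differed 407-fold, which put the SD of log2 CPM at percentile 99.4 of the tested genes. The medians were 1.61 CPM in wild type and 19.6 CPM in Rfx2-/- testis; the 3 lowest mice were wild type, and the highest mice came from both genotypes, which overlapped. The order of the 11 mice by Pdilt was the order by summed round spermatid markers, from Rfx2-/- replicate 7, wild type replicate 1 and Rfx2-/- replicate 6 down to wild type replicates 4, 3 and 5. The means were 16.1 ± 26.4 CPM (SD, n = 5) and 32.9 ± 38.5 CPM (SD, n = 6), and the log2 fold change was 1.03 (standard error 1.31, adjusted p = 0.552 from edgeR). Leaving out wild type replicate 1 gave 2.83 (adjusted p = 0.105, with 0.105 to 0.907 over all alternatives), and leaving out Rfx2-/- replicate 7 gave 0.24. Of the 2146 exon bases of Pdilt, 4.85% overlap exons of Acsm5 and 6.43% those of Gm37518, both on the other strand.

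Hspa1l (ENSMUSG00000007033, chromosome 17 from 34972703 to 34979285, plus strand), a testis HSP70, was measured at 29.0, 5.95, 4.03, 3.40 and 3.21 CPM in replicates 1 to 5 of the wild type. Rfx2-/- replicates 6 to 11 had 8.02, 32.7, 4.12, 3.42, 4.65 and 3.61 CPM. One mouse of each genotype was high, and the others of both genotypes lay between 3.21 and 8.02 CPM. The log2 fold change of 0.05 (standard error 0.79, adjusted p = 0.965 from edgeR) turned on these mice, being 1.18 when wild type replicate 1 was left out and -0.93 when Rfx2-/- replicate 7 was, and it was -0.08 with total counts. Its exons share 71.9% of their 2472 bases with the antisense gene Gm10501, which the count table does not list, and the counting is not stated to use strand, so reads of both cannot be told apart. Hspa1l also resembles Hspa1a and Hspa1b closely, and reads that fit more than 1 place had been discarded.

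Calr3 (ENSMUSG00000019732, chromosome 8 from 72424176 to 72443870, minus strand), the germ cell calreticulin, was measured at 9.94, 3.73, 4.77, 4.06 and 3.96 CPM in replicates 1 to 5 of the wild type. Rfx2-/- replicates 6 to 11 had 3.15, 11.7, 2.91, 3.11, 3.48 and 2.35 CPM. In contrast to the other members, 5 of the 6 Rfx2-/- mice were below every wild type mouse, while the remaining one, replicate 7, was above every one. The log2 fold change was -0.25 (standard error 0.45, adjusted p = 0.676 from edgeR). It was -0.82 without Rfx2-/- replicate 7 (adjusted p = 0.0937) and 0.11 without wild type replicate 1. Without both of these mice, an alternative chosen after seeing the data, it was -0.47 (adjusted p = 0.0463, above the limit of 0.01; adjusted p over all alternatives from 0.0463 to 0.854). Counts per mouse for Calr3 lay between 54 and 283.

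Pdilt, Hspa1l and Calr3 did not stand in one proportion in every mouse. Rfx2-/- replicate 6 had 50.1 CPM of Pdilt, near the 62.0 of wild type replicate 1, but 8.02 against 29.0 CPM of Hspa1l and 3.15 against 9.94 CPM of Calr3. The summed CPM of 6 late spermatid markers was 69.6 in Rfx2-/- replicate 6, 247 in wild type replicate 1 and 223 in Rfx2-/- replicate 7. Relative to Pdilt, as a ratio of RPKM, Hspa1l was between 0.333 and 11.1 in wild type and between 0.139 and 1.51 in Rfx2-/- testis, with 4 of 6 Rfx2-/- mice below every wild type mouse. Calr3 relative to Pdilt was 0.175 to 17.2 in wild type and 0.0689 to 1.35 in Rfx2-/- testis, with 3 of 6 below every wild type mouse. The upper wild type end of both ratios was in replicate 5, which had 0.251 CPM of Pdilt. Both ratios carry the spread of Pdilt, whose order over the mice was that of the round spermatid markers. When edgeR was given a round spermatid marker score as a covariate, the log2 fold changes were 0.12 for Pdilt (adjusted p = 0.244), -0.74 for Hspa1l (0.197) and -0.72 for Calr3 (0.152).

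**Figure D2:**
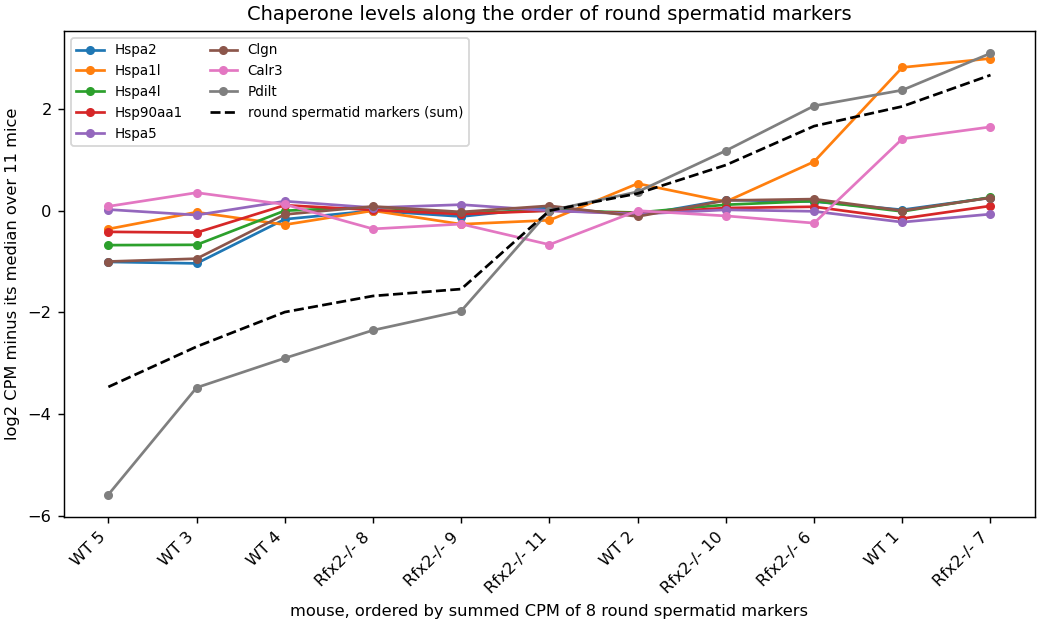
Log2 CPM of each chaperone minus its median over 11 mice, plotted against the mice in rising order of the summed CPM of 8 round spermatid markers (dashed line). Pdilt climbs along the whole order, Hspa1l and Calr3 stand high in the last 2 mice, Hspa2, Hspa4l, Hsp90aa1 and Clgn are low in the first 2, and Hspa5 stays level.

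The plot of fitted differences sets the members beside their nearest paralogs. In edgeR the log2 fold change was -0.20 for Hspa8, the constitutive HSP70 (adjusted p = 0.399), -0.19 for Hspa1a (0.497) and -0.28 for Hspa1b (0.372). The HSP110 genes Hspa4 and Hsph1 had 0.24 (0.0811) and 0.16 (0.273). Hsp90ab1, the constitutive cytosolic HSP90, had -0.09 (0.515), and P4hb, the founding disulfide isomerase, -0.22 (0.145). None of these paralogs passed the limit of 0.01.

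**Figure D3:**
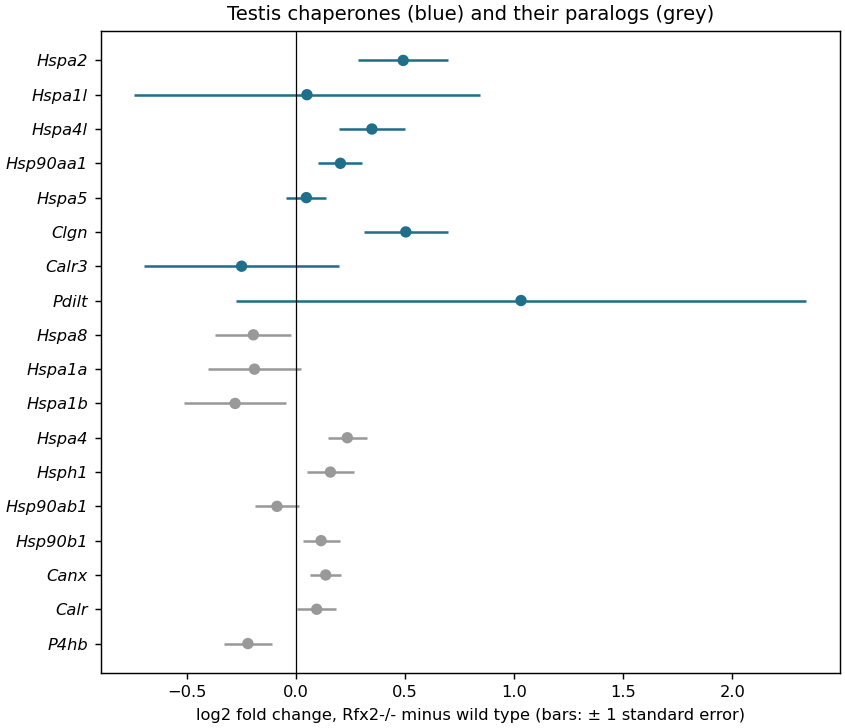
Log2 fold change (Rfx2-/- minus wild type) with 1 standard error from the edgeR fit over 11 mice, for the 8 chaperones in blue and 10 paralogs in grey. The bars of Pdilt, Hspa1l and Calr3 are the widest (standard errors 1.31, 0.79 and 0.45), and those of Hspa2, Hspa4l, Clgn and Hsp90aa1 lie above 0 with no call. Among the paralogs, the bars of Hspa4, Hsph1, Hsp90b1, Canx and Calr also lie above 0, and those of Hspa8, Hspa1b and P4hb below it.

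Within the HSP70 family the mix differed from mouse to mouse. Of the summed RPKM of 7 HSP70 genes, Hspa2 made up 35.5% to 55.9% in wild type and 49.0% to 57.1% in Rfx2-/- testis, and Hspa5 28.3% to 43.5% and 27.3% to 34.5%. Hspa8 held 2.62% to 7.15% in wild type and 2.43% to 4.07% in Rfx2-/- testis, and Hspa1l never more than 0.939%. Hspa2 relative to Hspa8 was between 4.97 and 21.3 in wild type and between 12.02 and 23.5 in Rfx2-/- testis, lowest in wild type replicates 5 and 3. Clgn relative to Canx ran from 1.21 to 2.77 and from 2.15 to 2.75, and Hspa4l relative to Hspa4 from 0.813 to 1.05 and from 0.974 to 1.09. Calr3 relative to Calr was below every wild type mouse in 5 of 6 Rfx2-/- mice, with wild type values from 0.00319 to 0.0103. The genotypes overlapped in each of these ratios.

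**Figure D4:**
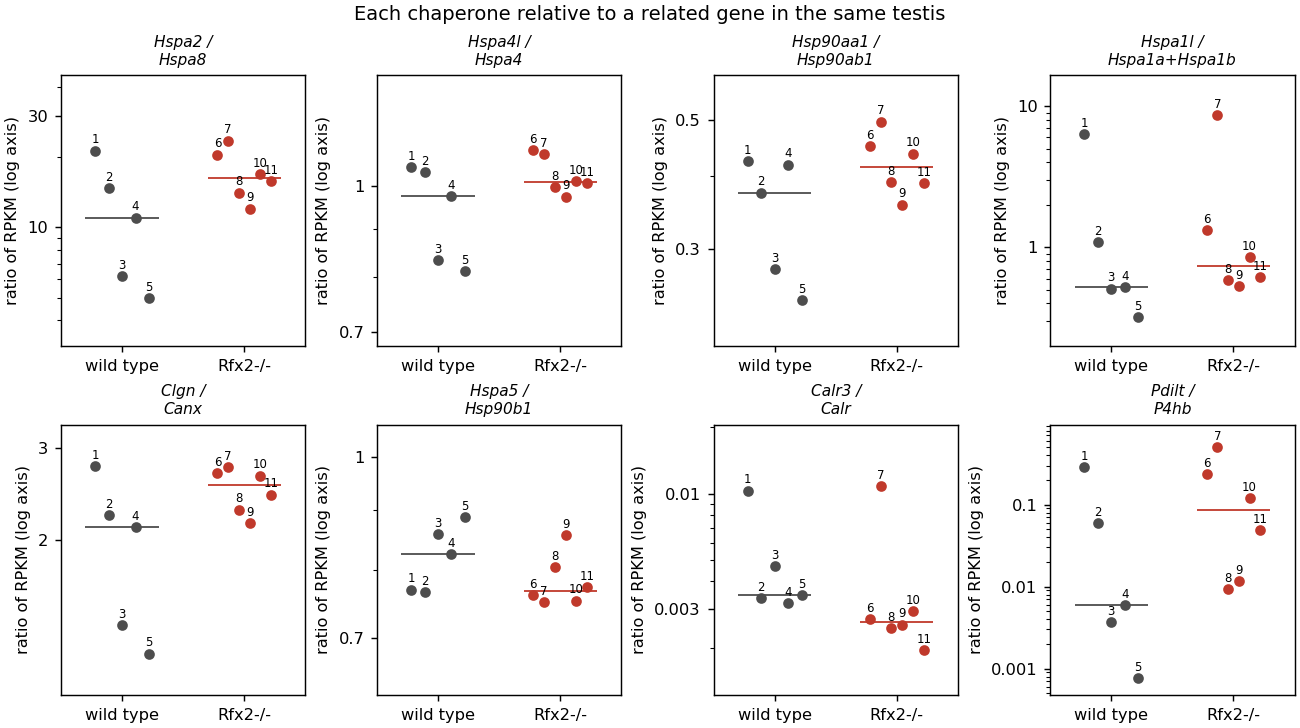
Ratio of the RPKM of each chaperone to that of a related gene in the same testis, on a log axis, 1 point per mouse with its replicate number and a line at the median of the genotype. The genotypes overlap in all 8 panels, and Pdilt relative to P4hb has the widest range, from 0.000763 to 0.499.

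The genes whose log2 CPM followed each member most closely over the 11 mice were picked by Pearson r, as a description. For Hspa2 they were Thap7, Pkig and Tprgl (r from 0.997 to 0.998), for Hspa4l Psmc3ip, Cops5 and Necab1, for Clgn 1700018B24Rik, Rdh11 and Hdgf, and for Hsp90aa1 Kansl1l, Cops3 and Dars. Pdilt was followed by Ankrd61, Plcz1 and Spata21 (0.998 to 0.999), Hspa1l by 1700001K19Rik, Tssk6 and Ccdc187 (0.972 to 0.982), and Calr3 by 4921507P07Rik, Igsf9 and Adgrg7 (0.940 to 0.962). Hspa5 was followed by Cd164, Zfp207 and Arcn1 (0.940 to 0.952).

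Sperm surface proteins that pass through the ER of germ cells, ADAM proteins among them, were listed next to the ER members. Of 10 such genes tested, 0 were called by edgeR at 0.01, 0 by DESeq2 (13.4% of all genes) and 0 by voom (6.66%). An unadjusted p under 0.05 was found for 5, all higher in Rfx2-/- testis, against 18.1% of all genes. Adam3, whose protein is a client of calmegin, calsperin and PDILT, averaged 437 ± 252 CPM (SD, n = 5) over wild type mice and 837 ± 166 CPM (SD, n = 6) over Rfx2-/- mice. In edgeR its log2 fold change was 0.94 (adjusted p = 0.0829). Adam2 had 0.65 (0.0811), Adam1b 0.85 (0.0973) and Adam1a 0.96 (0.433). With the pachytene marker score as a covariate the values were 0.12 for Adam3, 0.05 for Adam2, 0.03 for Adam1b and -0.46 for Adam1a (adjusted p from 0.658 to 0.923). Adam3 relative to Clgn was 0.393 to 0.923 in wild type and 0.771 to 1.06 in Rfx2-/- testis.

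Of 101 other chaperones and partners listed, 99 were tested, and edgeR called 0 at 0.01 against 1.94% of all genes lower and 0.73% higher. At an unadjusted p under 0.05 there were 31 higher and 8 lower, against 18.1% and 23.7% of all genes. DESeq2 called 7 higher and 1 lower (13.4% of all genes in either direction), and voom called 2 higher and 0 lower (6.66%). The median log2 fold change was 0.13 over the 99. Among the chaperonins, whose TRiC ring folds actin and tubulin, 6 of 11 had an unadjusted p under 0.05, all higher; over all genes 41.8% passed this limit in either direction and 18.1% higher. Among the J proteins, which hand clients to HSP70, 6 of 15 were higher and 2 lower by that limit, and among the BiP partners and ER stress genes 4 of 15 were higher and 0 lower.

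At an adjusted p of at most 0.05, a limit that 14.9% of genes passed (6.15% higher and 8.78% lower), 10 of the 99 were found, named here after their values were seen. Herpud1, an ER-associated degradation gene of the unfolded protein response, had the lowest value (log2 fold change 0.37, adjusted p = 0.0180 from edgeR). Dnaja2, Dnajb2, Hspb6, Hsf2 and Ero1lb were the other higher ones, and Fkbp5, Hspb2, Hspb8 and Txndc5 the lower ones. With a marker score as a covariate in edgeR, other genes were called at 0.01, also named after their values were seen. With the round spermatid score this was Dnajb13, a J protein of the axonemal radial spoke (log2 fold change -1.51, adjusted p = 0.000167, against -1.10 and 0.0981 without it). With the pachytene score these were Dnajb13 (-2.05, 0.00153), Hspb9 (-0.71, 0.000518) and Hspbp1 (-0.40, 0.00503), all lower, and Dnajb2 (0.26, 0.00350), which was higher. Over the 15745 tested genes, 656 were called lower and 267 higher with the round spermatid score. The pachytene score gave 644 lower and 96 higher.

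**Figure D5:**
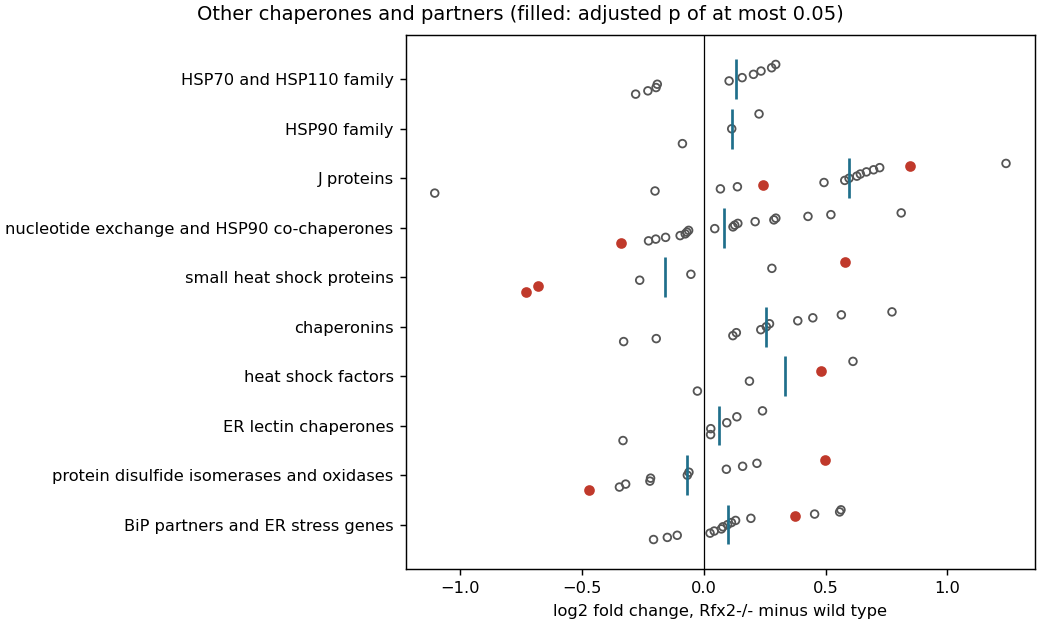
Log2 fold change (Rfx2-/- minus wild type) of 99 other chaperones and partners by list, 1 circle per gene; filled circles have an adjusted p of at most 0.05 in edgeR (10 genes) and the blue bar is the median of the list. The J proteins have the highest median (0.60) and the small heat shock proteins the lowest (-0.16).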

How the data were processed

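Total RNA of decapsulated P21 testes was sequenced from TruSeq libraries. The submitters' processing notes name CASAVA 1.8.2, STAR 2.4, featureCounts 1.4.6 and GRCm38. Per the methods, reads with more than 1 position were discarded and reads on merged exons of protein coding isoforms were counted; the read length and aligner are given differently in different places. The table the authors deposited holds raw counts of 23074 genes, without normalization, and 22293 of the identifiers matched a GENCODE M21 symbol.

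The counts were fitted with edgeR 4.0.16 (R 4.3.3): filterByExpr by genotype (15745 genes), TMM, glmQLFit and glmQLFTest without covariates, and Benjamini-Hochberg adjustment over all tested genes. A gene was called at an adjusted p of at most 0.01, at any fold change. Correlations used log2 CPM with a prior count of 2, and RPKM the merged exons of M21. Alternatives were DESeq2 size factors, total counts, DESeq2 1.42.0 (Wald test), voom with quality weights in limma 3.58.1, edgeR's robust option, keeping every gene with 1 count, requiring a mean count of 50, limits of 0.05 on the adjusted and 0.01 on the unadjusted p, scores of round spermatid or pachytene markers as a covariate, and each mouse left out; leaving out wild type replicate 1 and Rfx2-/- replicate 7 together was added after seeing the data. The members and all lists were chosen with earlier results of these data known. Named genes were the members, 10 paralogs, Adam1a, Adam1b, Adam2, Adam3, Rfx2, any called gene of the other lists (0 were called) and the 3 genes most correlated with each member; other genes are marked as named after their values were seen. The depth was 22232097 to 29769483 counts per mouse. The mice are separate animals. Protein sequences were not used here. Summaries used pandas 2.3.3, SciPy 1.17.1 and matplotlib 3.10.9 under Python 3.11.15.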

Additional observations from a re-analysis of the deposited data

Results flagged for a closer look

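On the linear CPM scale, single mice stood far from the rest of their genotype for 3 chaperones. For each gene and genotype, the gap of the highest or lowest mouse to its neighbour was set against the whole range by Dixon's criterion. Chance passes it in about 1 of 20 groups of independent, normally distributed values. Of 16 groups 5 passed, all through wild type replicate 1 or Rfx2-/- replicate 7. CPM need not be normally distributed and the genes share mice, so the 1 of 20 is no baseline for these groups. Hspa1l had 29.0 CPM in wild type replicate 1 and 32.7 CPM in Rfx2-/- replicate 7. Calr3 had 9.94 CPM in wild type replicate 1 and 11.7 CPM in Rfx2-/- replicate 7. Pdilt had 62.0 CPM in wild type replicate 1. These mice also had the highest sums of late spermatid markers, 247 and 223 CPM, against 1.10 to 69.6 CPM in the others; the part of cell makeup in these values was not tested.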

How the results depend on the processing

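None of the 8 members was called under any alternative that gave it a p; DESeq2's Wald test gave none for Hspa1l. The fitted direction of Hspa2 and Clgn was the same in all 23 alternatives, those that only move the limit on p included (log2 fold change 0.01 to 0.61 for Hspa2 and 0.04 to 0.61 for Clgn). With the pachytene score as a covariate it turned for Hspa4l (-0.0084), Hsp90aa1 (-0.011), Pdilt (-1.21) and Hspa1l (-1.11). With total counts it turned for Hspa5 (-0.12) and Hspa1l (-0.082). Hspa1l was also negative with voom (-0.072), with the round spermatid score (-0.74), and without wild type replicate 2 (-0.07), 3 (-0.13), 4 (-0.16) or 5 (-0.15) or Rfx2-/- replicate 7 (-0.93). Without wild type replicate 1, Calr3 was at 0.11. Leaving out each mouse gave ranges of -0.93 to 1.18 for Hspa1l, -0.82 to 0.11 for Calr3 and 0.24 to 2.83 for Pdilt.

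The other chaperones called lower and higher were 0 and 0 in the fit reported, 1 and 7 with DESeq2's Wald test, 0 and 2 with voom, 1 lower with the round spermatid score, 3 and 1 with the pachytene score, 4 and 6 with the limit on adjusted p at 0.05, and 4 and 7 with the limit on unadjusted p at 0.01. Leaving out each mouse gave 0 lower and 0 to 1 higher, the 1 being without wild type replicate 1. Over all genes, 305 lower and 115 higher became 911 and 1146 with DESeq2 and 682 and 367 with voom. They became 656 and 267 with the round spermatid score, and 644 and 96 with the pachytene score. They were 1382 and 968 with the limit on adjusted p at 0.05 and 1604 and 1180 with the limit on unadjusted p at 0.01. Leaving out each mouse gave 184 to 393 lower and 45 to 192 higher. The causes of these changes were not tested. No paired analysis was made, because the sample labels used here name no litter or other pairing. Counts reached down to 54 for Calr3, 77 for Hspa1l and 8 for Pdilt, and the standard errors of these genes were the largest of the members.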
